A study of Mus musculus with 6 samples.

Results

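The genes described here are 9 members of the catecholamine system and its peptide partner: Th, Dbh, Ddc, Pnmt, Slc18a2, Slc6a2, Gch1, Phox2a and Npy. They were taken by name from the 49568 gene names with a deposited RPKM (reads per kilobase of exon, scaled to the library's reads on genes). They were chosen by their RPKM in 1 non-Dbx1 sample, Neg2, against the other 5 samples, so the values of Neg2 against the rest are a description and carry no test. The samples were 3 pools of Dbx1-derived preBötC interneurons (Dbx1 neurons; Pos1, Pos2 and Pos3) and 3 pools of preBötC interneurons not derived from Dbx1-expressing progenitors (non-Dbx1 neurons; Neg1, Neg2 and Neg3). Each pool held 15 neurons drawn by micropipette from the brainstem slice of a different mouse at postnatal day 2. All 6 mice were Dbx1CreERT2; Rosa26tdTomato offspring of dams given tamoxifen during gestation. A Dbx1 neuron was thus a cell with tdTomato fluorescence, and a non-Dbx1 neuron was a neuronal soma without it, whatever else that neuron was.

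Catecholamine neurons convert tyrosine to L-DOPA with tyrosine hydroxylase, L-DOPA to dopamine with aromatic L-amino acid decarboxylase, dopamine to noradrenaline with dopamine β-hydroxylase and, in adrenergic neurons, noradrenaline to adrenaline with phenylethanolamine N-methyltransferase. The amine is loaded into vesicles by a monoamine transporter and, in noradrenergic neurons, taken up again at the plasma membrane by the noradrenaline transporter. In the ventrolateral medulla, adrenergic (C1) and noradrenergic (A1) neurons lie close to the respiratory column, influence blood pressure, breathing and stress responses, and many of them also make neuropeptide Y.

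Between 6464675 and 9432958 reads per sample lay on genes, a depth worked out from the spacing of low RPKM values. The neuronal markers Tubb3, Snap25, Syn1, Eno2, Rbfox3 and Map2 had reads in every sample, and their summed level was 1272 RPKM in Neg2 and 993 to 1708 RPKM in the other 5 samples. A level of 3 reads was taken as the floor for a gene with none, which covers counting error only, because reads from amplified cDNA are not independent molecules. In pools of cells, fewer neurons of a kind and less RNA per neuron cannot be told apart.

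All 9 genes were highest in Neg2, as the choice of genes required. Of the 27067 genes with reads in any sample, 16.4% were highest there. Neg2 held from 73.6% (Gch1) to the whole (Slc6a2 and Phox2a) of the RPKM summed over the 6 samples. The excess of Neg2 was taken as its log2(RPKM + 1) minus the highest log2(RPKM + 1) among the other samples. It was at least 4, a 16-fold difference on this scale, for 6 of the 9 genes (Npy, Dbh, Th, Ddc, Phox2a and Slc18a2), and for 0.0554% of all genes with reads, which is 15 genes. The other 3 were Slc6a2 at 3.74, Pnmt at 3.14 and Gch1 at 2.04.

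**Figure D1:**
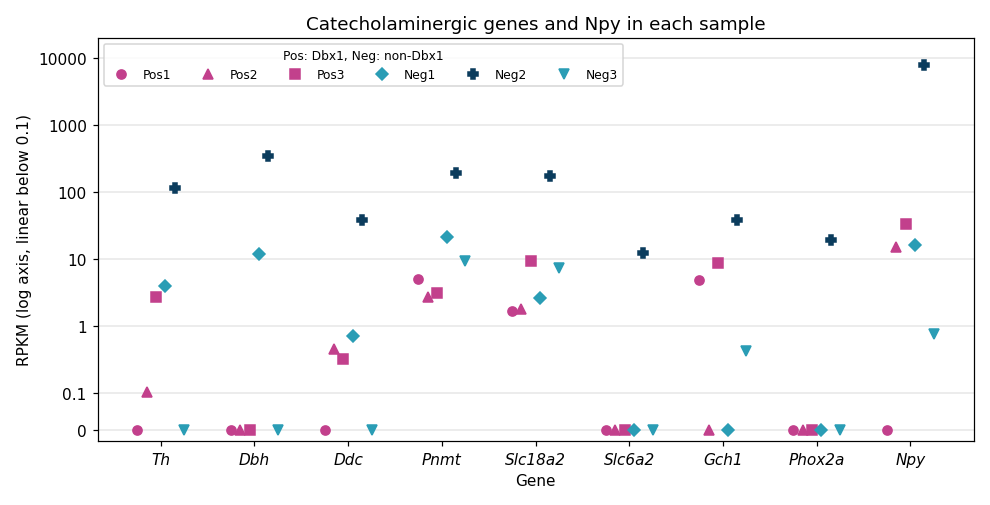
RPKM of each of the 9 genes (x axis) in each sample (y axis, logarithmic, linear below 0.1), with 1 point per sample, Dbx1 samples in magenta and non-Dbx1 samples in blue. Neg2 is the highest point for every gene, from 12.3 RPKM for Slc6a2 to 7800.2 RPKM for Npy, and Slc6a2 and Phox2a lie at 0 in the other 5 samples.

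Th (ENSMUSG00000000214), on chromosome 7 from 142892752 to 142931128 of GRCm38, encodes tyrosine hydroxylase, the rate-limiting enzyme of the pathway. Its level was 113.6 RPKM in Neg2, 3.86 in Neg1 and 0 in Neg3, and in the Dbx1 samples it was 0, 0.102 and 2.70 RPKM. These came from 5066 reads in Neg2, 130 in Neg1 and 98 in Pos3, with 4 in Pos2. Neg2 was thus 29.4-fold above the next sample, Neg1, and the remaining samples overlapped between the groups.

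Dbh (ENSMUSG00000000889), on chromosome 2 from 27165233 to 27183200, encodes dopamine β-hydroxylase, which marks noradrenergic and adrenergic cells among catecholamine neurons. Dbh had reads in Neg2, at 339 RPKM, and in Neg1, at 11.8 RPKM, and was at 0 in Neg3 and in all 3 Dbx1 samples. Where it had none, 3 reads would have given at most 0.156 RPKM. Of the 7 members with reads in more than 1 sample, it was the only one without reads in any Dbx1 sample.

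Ddc (ENSMUSG00000020182), on chromosome 11 from 11814101 to 11898144, encodes the decarboxylase shared by catecholamine and serotonin neurons. It measured 37.6 RPKM in Neg2 from 2165 reads, and 0.690 in Neg1, 0.454 in Pos2 and 0.320 in Pos3 from 30, 23 and 15 reads. Pos1 and Neg3 were at 0. Apart from Neg2, all samples were therefore low, and the groups overlapped.

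Pnmt (ENSMUSG00000038216), on chromosome 11 from 98386450 to 98388181, encodes the enzyme that makes adrenaline. It had reads in all 6 samples, at 20.9, 192 and 9.40 RPKM in the non-Dbx1 samples and at 4.94, 2.66 and 3.08 RPKM in the Dbx1 samples. Pnmt was the only one of the 9 whose groups did not overlap, with every non-Dbx1 sample above every Dbx1 sample. Such a separation, with non-Dbx1 higher, was found for 5.24% of the 17614 genes tested between the groups. The choice of genes had already put Neg2 on top, so this share is not a fair comparison for Pnmt.

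Slc18a2 (ENSMUSG00000025094), on chromosome 19 from 59260896 to 59296012, encodes the vesicular monoamine transporter VMAT2 and also had reads in all 6 samples. It measured 171 RPKM in Neg2, 2.60 in Neg1 and 7.25 in Neg3, against 1.65, 1.78 and 9.41 RPKM for Pos1 to Pos3. The next sample below Neg2 was a Dbx1 sample, Pos3, and the groups overlapped. In the annotation, 111 bases of its exons overlap Gm29261, and HTSeq by default assigns such reads to neither gene.

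Slc6a2 (ENSMUSG00000055368), on chromosome 8 from 92960079 to 93001667, encodes the noradrenaline transporter. It had 12.3 RPKM in Neg2, from 696 reads, and no reads in any other sample. The level in Neg2 was at least 175-fold higher than 3 reads would have given in any one of the other 5 samples.

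Gch1 (ENSMUSG00000037580), on chromosome 14 from 47153895 to 47189413, encodes GTP cyclohydrolase 1, the first enzyme in making tetrahydrobiopterin, the cofactor of tyrosine hydroxylase. Gch1 measured 38.5 RPKM in Neg2, 0 in Neg1 and 0.420 in Neg3, against 4.76, 0 and 8.60 RPKM in the Dbx1 samples. Its 4.47-fold distance from Neg2 to the next sample, Pos3, was the smallest of the members. Pos1 and Pos3 lay above both Neg1 and Neg3.

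Phox2a (ENSMUSG00000007946), on chromosome 7 from 101818313 to 101822726, encodes a homeodomain protein needed for the noradrenergic phenotype. It had 19.2 RPKM in Neg2, from 366 reads, and none in the other 5 samples, which put Neg2 at least 92.2-fold above the level of 3 reads in any one of them. In the annotation, 95 bases of its exons overlap Inppl1.

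Npy (ENSMUSG00000029819), on chromosome 6 from 49822710 to 49829507, encodes the neuropeptide Y precursor. It was the gene with the highest RPKM of all in Neg2, where 37777 reads made up 0.441% of the library. In the other samples it measured 16.1 RPKM in Neg1 and 0.749 in Neg3, and 0, 14.8 and 33.3 RPKM in the Dbx1 samples. These values rested on 0 to 131 reads. Its excess in Neg2 was the largest among all 27067 genes with reads, at 7.83, and its 234-fold distance to the next sample (Pos3) was far beyond the 4.47-fold to 54.5-fold of the other members with reads elsewhere.

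Within Neg2 the genes ranked Npy, Dbh, Pnmt, Slc18a2, Th, Gch1, Ddc, Phox2a and Slc6a2 by RPKM. Each rank is a single library's value. The lengths recovered from the RPKM values differ from merged exons for all members but Npy, so the order depends on length. For Th, Ddc, Slc18a2 and Gch1 the recovered length is the shortest that gives whole reads, and a multiple of it was not excluded. A multiple would raise their values per merged exon length, so the places below hold for the shortest lengths only. The shortest length for Th, 5211 bases, was 2.20 times the merged exons of GENCODE, and that of Gch1, 2775 bases, was 0.444 times. Per merged exon length, the RPKM in Neg2 was 347 for Dbh, 250.4 for Th, 233 for Pnmt, 125 for Slc18a2, 56.7 for Ddc, 21.0 for Phox2a, 17.1 for Gch1 and 12.9 for Slc6a2. Th thereby moved from the fifth to the third place and Gch1 from the sixth to the eighth, while Npy stayed first.

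**Figure D2:**
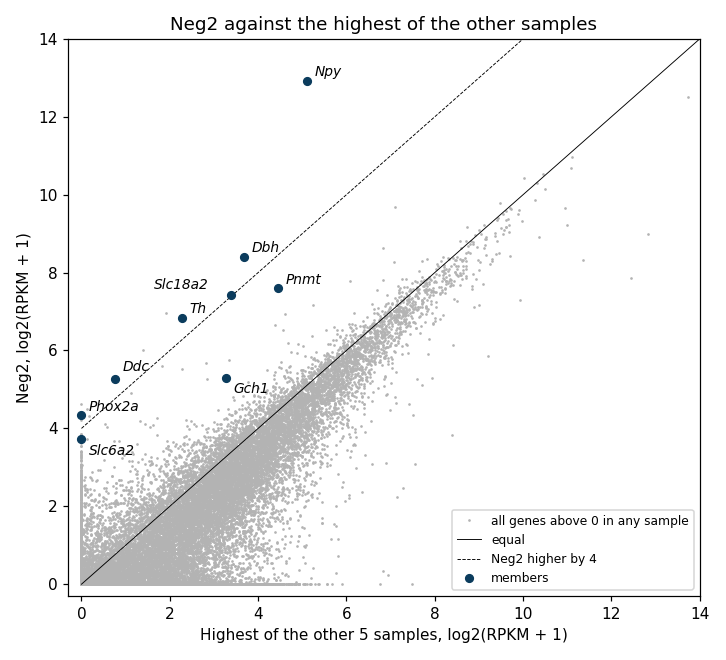
Level in Neg2 (y axis) against the highest level among the other 5 samples (x axis), both as log2(RPKM + 1), for all genes with reads in any sample (grey) and the 9 members (blue, named). Npy lies farthest above the line of equality, by 7.83, and 6 of the 9 members lie on or above the dashed line, where Neg2 is higher by at least 4.

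Neg1 had reads for 6 of the 9 genes, as had Pos3, all at levels below Neg2. Neg1 was the next highest sample for Th, Dbh, Ddc and Pnmt. The level of Th in Neg1 was 3.40% of that in Neg2, and the level of Dbh was 3.49%. The ratio of Th to Dbh was thus alike, at 0.326 in Neg1 and 0.335 in Neg2, each from a single library.

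Other members did not keep that proportion. Pnmt in Neg1 was 10.9% of its level in Neg2, Ddc 1.83%, Slc18a2 1.52% and Npy 0.207%. The ratio of Npy to Dbh was 1.36 in Neg1 and 23.0 in Neg2. Phox2a, Slc6a2 and Gch1 had no reads in Neg1, where 3 reads would have been 1.08%, 0.571% and 0.435% of the level in Neg2, all below the share that Th and Dbh had there.

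**Figure D3:**
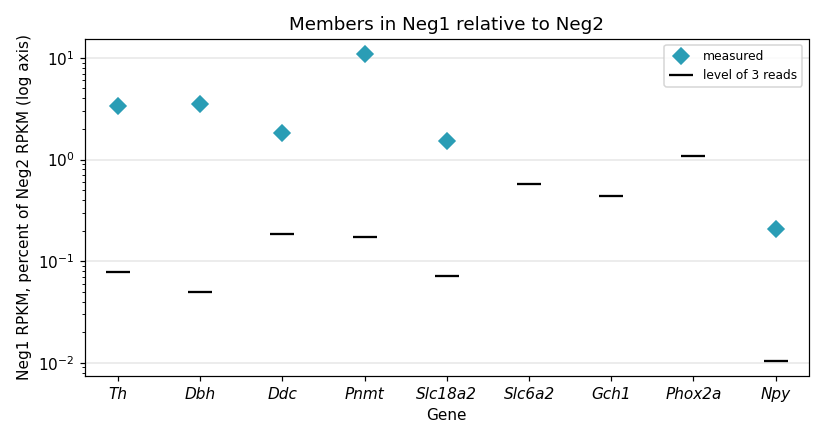
RPKM in Neg1 as a percent of RPKM in Neg2 (y axis, logarithmic) for each gene (x axis), with diamonds for genes with reads and dashes at the level 3 reads would give. Th and Dbh lie together at 3.40% and 3.49%, Pnmt lies above them at 10.9% and Npy below at 0.207%, and Slc6a2, Gch1 and Phox2a have a dash only.

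Among the Dbx1 samples, Pos3 had reads for 6 of the 9 genes, Pos2 for 5 and Pos1 for 3. Pos3 was the next highest sample after Neg2 for Slc18a2, Gch1 and Npy, and it had 98 reads of Th but none of Dbh. Neg3 had reads for 4 members, with 124 reads of Pnmt, 260 of Slc18a2, 11 of Gch1 and 4 of Npy, and none of Th, Dbh or Ddc.

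The sequence before the start of transcription is shown for 3 of the genes that make noradrenaline or load it into vesicles, since these are high together in Neg2 and hold the searched element or part of it. The sequences are from RefSeq on GRCm38.p6, 250 bases before the start and 10 after it, and capitals mark the cAMP response element TGACGTCA or its shorter form CGTCA on either strand. Of the 9 genes, 7 were in the promoter table, which did not match Slc6a2 and Pnmt. Th is from chr7:142899986-142900245 (minus strand), Dbh from chr2:27165257-27165516 (plus strand) and Slc18a2 from chr19:59260628-59260887 (plus strand).
Th: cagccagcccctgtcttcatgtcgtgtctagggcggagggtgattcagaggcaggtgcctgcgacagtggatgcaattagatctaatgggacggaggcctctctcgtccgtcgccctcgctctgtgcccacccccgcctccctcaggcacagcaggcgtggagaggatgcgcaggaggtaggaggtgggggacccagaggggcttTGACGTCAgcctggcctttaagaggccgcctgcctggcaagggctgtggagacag
Dbh: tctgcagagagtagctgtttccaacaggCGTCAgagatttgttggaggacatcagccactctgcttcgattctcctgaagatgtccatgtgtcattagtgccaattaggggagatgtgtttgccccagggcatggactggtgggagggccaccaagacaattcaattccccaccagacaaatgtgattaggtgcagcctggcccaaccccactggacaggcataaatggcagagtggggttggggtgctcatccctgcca
Slc18a2: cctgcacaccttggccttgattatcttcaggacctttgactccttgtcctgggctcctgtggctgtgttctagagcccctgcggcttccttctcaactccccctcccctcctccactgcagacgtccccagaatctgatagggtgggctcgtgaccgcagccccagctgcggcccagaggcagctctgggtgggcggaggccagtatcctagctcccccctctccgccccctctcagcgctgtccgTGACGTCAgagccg
In windows of 300 bases (250 before the start and 50 after), the full element was in 2 of the 7 genes, Th and Slc18a2. These 7 genes have 8 promoters, since Ddc has more than 1 start. Shares over all genes are per promoter, and 1.79% of all 32851 promoters held the full element. In Th it begins 45 bases before the start, and in Slc18a2 it spans the start, beginning 4 bases before it. The shorter form, which every full element contains, was in Th, Slc18a2, Dbh and Gch1, and in 20.8% of all promoters. The homeodomain palindrome TAATTA was in none of the 7 and in 5.29% of all promoters. These are matches of letters in 1 window per start and not measured binding.

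The study's own comparison set the 3 Dbx1 samples against the 3 non-Dbx1 samples. For this, limma was run on log2(RPKM + 1) for the 17614 genes that had reads in at least 3 samples, and L2FC (the log2 fold change) is above 0 where Dbx1 was higher. Since the genes were chosen for a high level in Neg2, a non-Dbx1 sample, the sign of their L2FC follows from the choice and nothing is read from it: it was below 0 for all 9, with a median of −2.02, where 49.2% of the genes tested were below 0 and their median was 0.0089. Without Neg2, L2FC was below 0 for 5 of the 9 and above 0 for Npy and Gch1. It was 0 for Slc6a2 and Phox2a, which had no reads left. The median of the 9, with these included, was −0.06, where the median of the genes tested without Neg2 was 0.014. Only 6 of the 9 genes passed the filter, since Dbh had reads in 2 samples and Slc6a2 and Phox2a in 1. None of the 6 had an FDR under 0.1 in limma, the FDR ranging from 0.864 (Pnmt) to 0.9997 (Gch1). Of all genes tested, 0.00568% had an FDR under 0.1, which is 1 gene (D930028M14Rik). The study itself, with DESeq2 on counts at the same FDR threshold, reported more genes, among them Gata2, Htr1a, Hif1a and Pbx3. The count from limma is therefore not the study's count. Pnmt was the 1 member with an unadjusted limma p under 0.05, where 2.48% of all genes had such a p with non-Dbx1 higher. The p and FDR values of members in this fit also draw on Neg2, which chose them, so nothing is read from them either.

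The L2FC of Npy was −2.92 (standard error 2.72, limma FDR = 0.951). That of Th was −2.36 (standard error 1.53, limma FDR = 0.936). Npy averaged 2606 ± 4499 RPKM in the non-Dbx1 samples and 16.02 ± 16.7 RPKM in the Dbx1 samples (SD, n = 3), so the SD exceeded the mean in both groups. The difference for Slc18a2 was −2.02 (standard error 1.30), for Ddc −1.70 (standard error 1.22) and for Gch1 −0.0066 (standard error 1.44). These values also depended on the other non-Dbx1 samples: without Neg3 the L2FC was −3.88 for Th, −2.70 for Ddc and −5.49 for Npy, and without Neg1 it was −3.15 for Slc18a2. Without Dbx1 sample Pos1 it was −1.41 for Npy. None of these had a limma FDR under 0.1.

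Without Neg2, in a fit of 3 Dbx1 against 2 non-Dbx1 samples, the differences of Th, Ddc and Slc18a2 were −0.46, −0.06 and −0.36, each smaller than its standard error of 0.825, 0.324 and 0.819. The sign turned for Npy, to 0.57 (standard error 1.53), and for Gch1, to 1.68 (standard error 0.964). Dbh, with reads in Neg1 only, had a difference of −1.84 and was not in the fit. Slc6a2 and Phox2a had no reads left in any sample. No member had a limma FDR under 0.1 without Neg2, where 0.00606% of genes did (1 gene, Gm1821, higher in Dbx1).

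Pnmt kept the larger part of its difference without Neg2. Its L2FC was −2.98 (standard error 0.929, limma FDR = 0.864) with all 6 samples and −1.76 (standard error 0.552, limma FDR = 0.912) without Neg2. The remaining non-Dbx1 samples, at 20.9 and 9.40 RPKM, still lay above the highest Dbx1 sample, at 4.94 RPKM. Pnmt was again the 1 member with an unadjusted limma p under 0.05, where 2.46% of all genes had such a p with non-Dbx1 higher. With Neg2 left out, 9.72% of 16509 genes had groups apart in that direction, so Pnmt was 1 of 1605 such genes.

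Other genes of the catecholamine pathway were read from a list of 12 cofactor, vesicle and breakdown genes. Of these, 3 had an excess of at least 1 in Neg2 (a 2-fold difference), against 2.76% of all genes with reads. Cyb561, which encodes a vesicle membrane protein that regenerates the ascorbate used by dopamine β-hydroxylase, measured 121 RPKM in Neg2 and 7.05 to 23.3 RPKM in the other samples. Pcbd1, whose product regenerates tetrahydrobiopterin, measured 220.4 RPKM in Neg2 and 25.9 to 66.2 elsewhere. Maoa, which encodes monoamine oxidase A, measured 68.8 RPKM in Neg2 and 3.19 to 31.5 elsewhere.

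The rest of that list had an excess under 1. Maob, encoding the other monoamine oxidase, was at 0 in Neg2 and at 0 to 7.14 RPKM in the other samples. The tetrahydrobiopterin enzymes Pts and Spr measured 7.59 and 2.08 RPKM in Neg2, against highest values of 7.40 and 4.88 elsewhere. The granins Chga and Chgb, which are general proteins of dense-core vesicles, measured 210.2 and 187 RPKM in Neg2, against highest values of 329 and 102 RPKM elsewhere. Of the 11 genes tested between the groups, 8 had L2FC below 0 and 3 above, where 49.2% of all genes tested were below 0. None had an FDR under 0.1 in limma. Pcbd1 was the 1 with an unadjusted limma p under 0.05, with non-Dbx1 higher, as for 2.48% of all genes tested.

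Of 9 regulators linked to noradrenergic identity, 2 had an excess of at least 1 in Neg2. Tfap2b, encoding an AP-2 factor, measured 49.96 RPKM in Neg2, 6.09 in Neg3 and at most 0.357 in the other 4 samples. Lmx1b, encoding a LIM homeodomain factor, had 1.81 RPKM in Neg2 and no reads elsewhere. Neg3, the sample next to Neg2 for Tfap2b, had no reads of Phox2a.

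Neg3 had the highest levels of several genes of cholinergic motor neurons, with 95.0 RPKM of Prph, 37.0 of Slc18a3 and 13.3 of Isl1. In Neg2 these measured 7.47, 7.60 and 0 RPKM, and the 6 cholinergic motor neuron markers summed to 27.8 RPKM in Neg2 and 157 in Neg3. Slc5a7, another of these markers, went the other way and was highest in Neg2, at 10.9 RPKM against 7.91 in Neg3.

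The other regulators had an excess under 1 in Neg2 or no reads in any sample. Gata3 measured 7.41 RPKM in Neg2, below Neg1 at 29.0 and Neg3 at 21.6. Ret measured 7.75 in Neg2 and 3.12 to 11.2 elsewhere. Rnf220 was highest in Neg2, at 39.8 RPKM against 9.08 to 23.1 elsewhere. Hand1 and Hand2, which act in the sympathetic lineage, had no reads in any sample. Of the 6 regulators tested, 4 had L2FC below 0 and 2 above, where 49.2% of all genes tested were below 0. None had an FDR under 0.1 in limma. Gata3 was the 1 with an unadjusted limma p under 0.05, with non-Dbx1 higher, as for 2.48% of all genes tested. In Pos1 to Pos3, Gata3 measured 3.02, 0.0968 and 2.54 RPKM, below all non-Dbx1 samples, a separation found for 5.24% of the genes tested. Its L2FC was −2.84 (standard error 0.682, limma FDR = 0.724), and Neg2 was the lowest non-Dbx1 sample.

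Of 10 genes reported in medullary catecholamine neurons, 2 had an excess of at least 1. Cartpt, the CART peptide precursor, measured 817 RPKM in Neg2, 135 in Pos2 and 60.2 in Neg1, and 3.78 to 5.18 in the remaining samples. Adcyap1, which encodes PACAP, measured 143 RPKM in Neg2, 37.0 in Neg3 and 24.4 in Neg1, against 2.23, 0.0636 and 6.19 RPKM in Pos1 to Pos3. Its difference between the groups was −4.16 (standard error 0.812, limma FDR = 0.697). The groups did not overlap, with non-Dbx1 higher, as for 5.24% of the genes tested. Of the 9 genes of this list that were tested, 5 had L2FC above 0 and 4 below, with a median of 0.26 and no FDR under 0.1. Besides Adcyap1, Tac1 (L2FC 2.30) and Slc17a6 (L2FC 1.44) had an unadjusted limma p under 0.05, both with Dbx1 higher. Of all 17614 genes tested, 480 had such a p with Dbx1 higher and 436 with non-Dbx1 higher.

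The other peptide genes of that list were each at their lowest in Neg2. Tac1, the substance P precursor, had its lowest level of the 6 samples in Neg2, at 13.2 RPKM, against 39.2 to 334 elsewhere. Penk, the enkephalin precursor, was also lowest in Neg2, at 156 RPKM against 172 to 972, as was Gal, the galanin precursor, at 0.821 RPKM against 1.09 to 21.3. Slc17a6, encoding the vesicular glutamate transporter Vglut2, measured 35.1 RPKM in Neg2, within the 13.6 to 128 of the other samples.

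**Figure D4:**
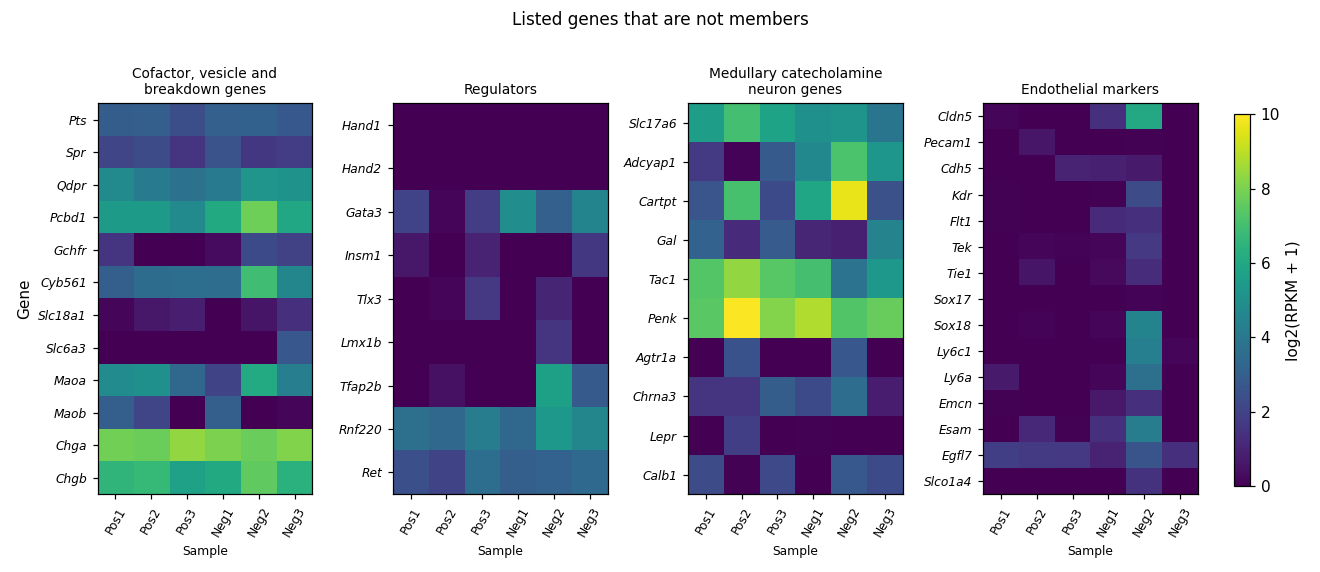
Levels as log2(RPKM + 1) (colour) of listed genes that are not members (rows) in the 6 samples (columns), in 4 panels. Cyb561, Pcbd1, Tfap2b, Cartpt and Adcyap1 are brightest in Neg2, Tac1 is darkest there, and of the endothelial markers Cldn5 is brightest in Neg2, at 63.7 RPKM.

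Ddc, Slc18a2 and Gch1 also serve serotonin and dopamine neurons, so markers of these cells were read beside them. In Neg2, Tph2, Slc6a4, Fev and Slc22a3 of serotonin neurons had no reads, but Slc6a4 and Fev had none in any sample. Htr1b, also on the serotonin list, measured 2.83 RPKM in Neg2 and 0.383 to 10.8 elsewhere. Slc6a3, Nr4a2, Pitx3 and Aldh1a1 of dopamine neurons summed to 0.0880 RPKM in Neg2. In the other samples the dopamine markers summed to between 0 and 24.0 RPKM, the highest in Neg3, where Slc6a3, the dopamine transporter gene, had 5.64 RPKM and Th had no reads.

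Npy is also made by inhibitory interneurons. Gad1, Gad2 and Slc32a1, which mark such neurons, measured 12.3, 57.6 and 10.3 RPKM in Neg2, each within the range of the other 5 samples, and Sst measured 318 RPKM against 54.9 to 2622. Nos1 had 0.0155 RPKM in Neg2.

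Some endothelial genes were also highest in Neg2. Cldn5, a tight-junction gene of brain endothelium, measured 63.7 RPKM in Neg2 and at most 1.64 RPKM elsewhere. A list of 15 endothelial markers was drawn up after Cldn5, Sox18 and Ly6c1 had been seen among the genes highest in Neg2. Of the 15, 13 were highest in Neg2 and 8 had an excess of at least 1. Cldn5, Sox18 and Ly6c1 are counted in both numbers, which are therefore a description only. Of all genes with reads, 16.4% were highest in Neg2 and 2.76% had an excess of at least 1. The 15 summed to 152 RPKM in Neg2 and to 1.83 to 7.501 RPKM in the other samples. Pecam1 and Cdh5, defining markers of the type, were at 0.0343 and 0.646 RPKM in Neg2, and no marker on the list was at 0 there. The part of these cells in the levels of the members was not tested. Erythroid genes, with 1198 RPKM in Neg2 over 4 globin genes, were highest in Neg1, at 13946 RPKM, and the oligodendrocyte gene Mbp was at 4.52 RPKM in Neg2 and 155 RPKM in Neg1.

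The genes most like the members, by the excess of Neg2 over the highest of the other 5 samples, were Gm8773, Ppp1r32, Cldn5, Sox18, Traj18, Ly6c1, Fam183b, Cpa4, Snord98 and Ngb. Their excess ran from 5.04 for Gm8773 to 3.59 for Ngb. Gm8773 measured 123 RPKM in Neg2 and at most 2.76 elsewhere, and Ppp1r32 measured 23.6 and had no reads elsewhere. Ngb, which encodes neuroglobin, measured 12.2 RPKM in Neg2 and at most 0.0917 elsewhere. Traj18 and Snord98 rested on 5 and 7 reads. Ranked with them, the members took places 1 (Npy), 3 (Dbh), 6 (Th), 7 (Ddc), 11 (Phox2a), 15 (Slc18a2), 22 (Slc6a2), 43 (Pnmt) and 202 (Gch1) of 27067.

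Genes that stood this far above all others were found in every library. Counted the same way, 3 to 32 genes per library exceeded the other 5 samples by at least 4, the most in Neg1, and 15 did so in Neg2.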

How the data were processed

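RNA from 6 pools of 15 neurons, 3 Dbx1 and 3 non-Dbx1, was reverse transcribed and amplified with SMART-Seq v4, and libraries were made with Nextera. The authors aligned single-end reads to mm10 with TopHat2, sorted them with SAMtools and counted them per gene name with HTSeq without strand. The deposited RPKM values are scaled to each library's reads on genes, and the main fit applied no further size factor. Tool versions were not given in the sources used here. The files analysed hold RPKM, so RPKM was tested on a log scale and not with the authors' DESeq2. Reads recovered from RPKM, as follows, gave depth, floors and the voom alternative.

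Each library's reads on genes were taken as the total for which the most short-gene RPKM values, read as 1 read, gave a whole exon length (56 to 79 of 280 to 300 values, against 17 to 41 for the next best total). Reads per gene are the fewest whole numbers that give the 6 values with 1 length, found for 27060 of 27067 genes. For Slc6a2 and Phox2a the recovered length divided the summed length of distinct exons exactly, which set their reads. For Th, Ddc, Slc18a2 and Gch1 it did not, so their lengths and reads are the smallest possible. Of 9883 genes with over 500 reads, 24.6% had a length equal to that sum and 10.1% to merged exons, so overlapping exons can count more than once and lower the RPKM of genes with many transcripts. Positions came from GENCODE vM21 (GRCm38), which matched 47287 names (95.4%).

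The groups were compared with limma 3.58.1 in R 4.3.3 (lmFit, then eBayes with trend) on log2(RPKM + 1), which understates changes of low genes. The fit covered the 17614 genes whose RPKM exceeded 0 in 3 or more samples, was two-sided, and used Benjamini-Hochberg FDR with a threshold of 0.1. Neg2 against the other 5 samples was described only. Other values used Python 3.11.15, numpy 2.4.6 and pandas 2.3.3, with figures from matplotlib 3.10.9.

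The members and lists were chosen with earlier results of these data known. Named genes are the 9 members, the 10 other protein-coding or named genes with the largest excess in Neg2, and, of each list, those with an excess of at least 1, an FDR under 0.1 or the highest means. Other listed genes, D930028M14Rik and Gm1821 were named after their values were seen. Some listed genes are not reported here and were left out of the lists' counts. Alternatives were a pseudocount of 0.1, other filters, size factors, no trend, a replicate block, each sample left out, voom on recovered reads, and for the excess other references. Merged exon lengths, groups apart without Neg2 and the longer endothelial list were added after seeing the data. Each sample was a single pool from a different mouse, so p-values rest on the spread between pools. In that spread, differences between mice, between the neurons drawn and between amplifications cannot be told apart.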

Additional observations from a re-analysis of the deposited data

How the results depend on the processing

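No member had an FDR under 0.1 in limma under any alternative that could include it, the lowest being 0.621 (Pnmt). Of 80 L2FC values of members under alternatives, 5 turned sign. Gch1 turned to 0.36 with a pseudocount of 0.1 and 0.11 with voom on recovered reads, and leaving out 1 sample at a time its L2FC ran from −0.97 to 1.68, with 0.96 without Dbx1 replicate 2. For Npy that range was −5.49 to 0.57, for Th −3.88 to −0.46, for Ddc −2.70 to −0.06, for Slc18a2 −3.15 to −0.36 and for Pnmt −3.87 to −1.76, the highest of each without Neg2; the cause of these turns was not tested beyond the samples left out. The excess of Neg2 stayed above 0 in all 90 values. Members with an excess of at least 4 numbered 6 to 7 without each other sample in turn, and leaving out Neg2 gives no value. All genes past 4 numbered 15, and 300 with a pseudocount of 0.1, 26 against the mean of the other samples, 23 against the other non-Dbx1 samples, and 16 to 19 with 1 other sample left out.

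Genes with FDR under 0.1 and non-Dbx1 higher numbered 1 (D930028M14Rik), 3 without the trend, and 0 with a pseudocount of 0.1, with all genes above 0 in at least 1 sample (394 and 383 genes with unadjusted p under 0.05 in the 2 directions) and with voom. With 1 sample left out there were 0 to 1 in each direction, the 1 with Dbx1 higher being Gm1821 without Neg2, and the 0 with non-Dbx1 higher arising without Neg2 and without Neg3. With the replicate number as a block there were 0, and no member was called. Same-numbered samples did not deviate together (correlations −0.11, 0.02 and −0.05), so the numbers give no pairing. Where a gene had no reads, levels under that of 3 reads were not detectable.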
